A study of Mus musculus with 10 samples.

Results

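The genes described here are 8 dual-specificity MAP kinase phosphatases, Dusp1, Dusp2, Dusp3, Dusp4, Dusp5, Dusp6, Dusp10 and Dusp16. They were chosen by name from the gene symbols of the authors' comparison tables, with earlier results from these libraries known. Which values led to their choice is not recorded, so their levels and calls are given as a description and support nothing further. They are 8 of 29893 genes measured, and all 8 passed the filter on low counts that left 13384 genes to test.

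MAP kinases (ERK, JNK and p38) are switched on when both a threonine and a tyrosine of their activation loop are phosphorylated. Dual-specificity phosphatases remove both phosphates and so switch the kinases off. Several of them are themselves induced by the kinases they silence, which closes a negative feedback loop. In myeloid cells these enzymes are known for limiting the cytokine output that follows a microbial or stress signal.

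The libraries came from NOD/scid mice, an immunodeficient strain that lacks functional T and B cells, carrying the breast tumour HCl-001 (TN1, described as highly metastatic) or HCl-002 (TN2, low metastatic). At end point, neutrophils and CCR2+ monocytes were sorted from the lungs by flow cytometry. The 10 libraries form 4 groups: neutrophils with TN1 (2 libraries, tag_191 and tag_482), neutrophils with TN2 (3 libraries, tag_367, tag_706 and tag_1341), and monocytes with TN1 (2) and TN2 (3) that bear the same tags. Each tumour is represented by 1 transplanted line, every animal carried a tumour, and animals without a tumour are not analysed here. The labels do not say that the tags are separate animals, so p-values measure only the spread between these samples. Each sequence of values below follows that order of tags.

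Libraries held 7239218 to 11311370 estimated counts. The sorted populations carried the marker genes of their labels: 15 of 15 neutrophil markers were lower in monocytes, 12 of 15 monocyte markers were higher there, and no marker was called the other way. Summed CPM of monocyte markers in neutrophil libraries was 20.6% to 40.9% of the monocyte mean. Neutrophil markers in monocyte libraries reached 1.03% to 2.97% of the neutrophil mean. On that measure neutrophil libraries held 10.2% to 17.2% for Dusp3, 0% to 35.4% for Dusp4 and 0% to 54.0% for Dusp10. The part of RNA from other cells in these values was not tested. Both tag_482 libraries stood apart, with the fewest genes of their cell type and 3.0% (neutrophils) and 19.9% (monocytes) of TPM on mitochondrially encoded genes. Elsewhere that share was 0.283% to 0.813% in neutrophils and 4.82% to 5.82% in monocytes. The TN2 tag_706 monocyte library also had 962 CPM of stromal and 1414 CPM of endothelial markers, against at most 67.4 and 169.8 CPM in the other monocyte libraries. In bulk samples such as these, fewer cells of a type and less RNA per cell cannot be told apart.

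Levels are given as TPM, a share of transcripts that corrects for length and allows genes to be compared. Differences are log2 differences from edgeR on counts, with CPM (the share of counts after TMM scaling) where libraries are compared for 1 gene. The median difference of all tested genes between monocytes and neutrophils was 0.46 on that log2 scale, so zero is not the centre of the genes. The same median was 0.62 with limma on log2(TPM + 1). By the latter, 4532 genes were higher and 1198 lower in monocytes, against 2070 and 1663 with edgeR.

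Between the cell types, 5 of the 8 genes passed the test (adjusted p under 0.05 over all genes). Dusp1, Dusp6 and Dusp16 were lower in monocytes, where 12.4% of all genes were called lower. Dusp3 and Dusp10 were higher, where 15.5% were called higher. The median of the 8 differences was -0.41. In CPM, 2 of the 8 genes were higher in monocytes without overlap between the 5 libraries of each cell type (Dusp3 and Dusp4; 16% of all genes), and 3 were lower without overlap (12.6% of all genes). Without both tag_482 libraries, 4 genes passed, with Dusp10 lost.

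**Figure D1:**
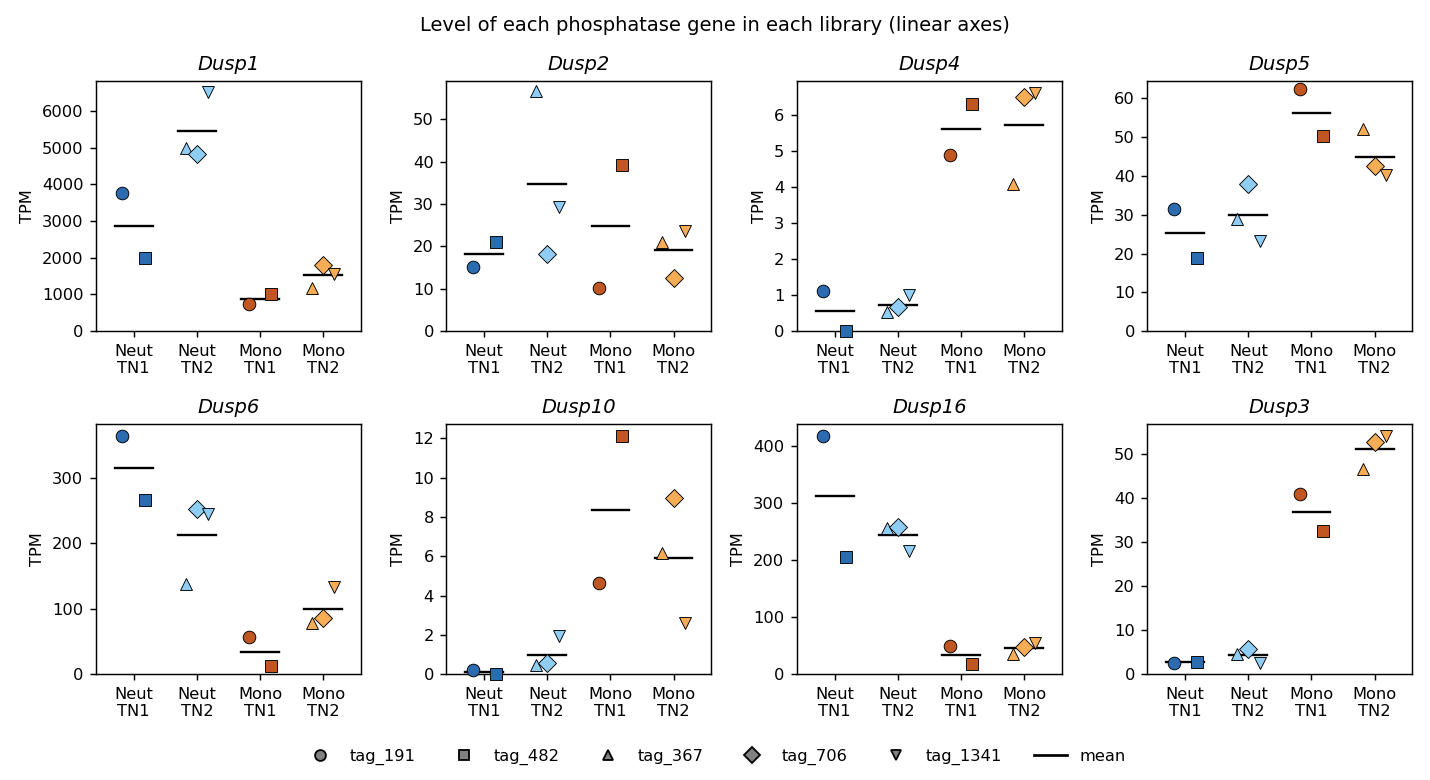
TPM of each phosphatase gene in each of the 10 libraries, on linear axes that differ between panels. Points are libraries, marked by tag, and lines are group means. Dusp1, Dusp6 and Dusp16 are higher in all 5 neutrophil libraries than in any monocyte library. Dusp3, Dusp4, Dusp5 and Dusp10 are higher in all 5 monocyte libraries than in any neutrophil library, though Dusp5 and Dusp10 overlap in CPM.

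Upstream sequences are shown for the 3 members whose window holds a cyclic AMP response element half-site or a CArG box, elements through which stimulated cells are known to switch on early genes. Letters come from RefSeq (GRCm38.p6), which had an entry for 7 of the 8 genes. The window searched runs from 250 to 51 bases before the start annotated in that source, 200 bases in all, on both strands. That start can differ from the end of the gene span given below for each gene, and the Dusp1 window lies inside its span. Capitals mark cyclic AMP response element half-sites (TGACG or its reverse complement CGTCA, bound by CREB and ATF factors) and CArG boxes (bound by serum response factor). Dusp1 (chr17:26508523-26508722, minus strand), Dusp5 (chr19:53528895-53529094, plus strand) and Dusp16 (chr6:134792679-134792878, minus strand) held such a match.
Dusp1: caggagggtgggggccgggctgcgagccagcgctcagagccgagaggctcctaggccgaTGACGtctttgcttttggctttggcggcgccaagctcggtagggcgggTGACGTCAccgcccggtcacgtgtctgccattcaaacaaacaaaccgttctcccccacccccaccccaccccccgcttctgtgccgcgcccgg
Dusp5: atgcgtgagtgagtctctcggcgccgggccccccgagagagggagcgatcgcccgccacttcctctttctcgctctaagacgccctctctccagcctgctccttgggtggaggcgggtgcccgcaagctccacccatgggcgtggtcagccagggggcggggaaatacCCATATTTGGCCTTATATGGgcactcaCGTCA
Dusp16: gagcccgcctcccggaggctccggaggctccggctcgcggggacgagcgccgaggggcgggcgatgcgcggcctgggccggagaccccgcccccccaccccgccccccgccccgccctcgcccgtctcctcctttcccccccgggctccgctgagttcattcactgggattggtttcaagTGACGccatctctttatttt
In the Dusp1 window a complete palindromic element, TGACGTCA, lay 143 to 136 bases before the start. Of the 3 half-site matches there, 2 are parts of it and the other lay further upstream, outside it. That palindrome was in 0.828% of 32851 promoter windows of the same length, and a half-site in 12.7%. Dusp5 held a pair of adjacent CArG boxes, 82 to 73 and 72 to 63 bases before the start. A CArG box was in 1.16% of windows. The E-box CACGTG, in 4.34% of windows, was in those of Dusp1 and Dusp2. No window of the 7 held the AP-1 motif TGANTCA (5.57% of windows) or the NF-kB motif (5.71%). These matches describe letters and were not tested as binding sites.

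Dusp1 (ENSMUSG00000024190, chromosome 17, 26505590 to 26562128, minus strand) encodes a nuclear phosphatase that acts mainly on p38 and JNK and is rapidly induced by stress, growth factors and glucocorticoids. It was the most abundant of the 8 in every library. In neutrophils it stood at 3769 and 1989 TPM with TN1 and at 4998, 4817 and 6523 TPM with TN2. In monocytes it stood at 730.1 and 1013.5 TPM with TN1 and at 1183, 1810.1 and 1571 TPM with TN2. Every neutrophil library was above every monocyte library, in CPM too. The difference, monocytes minus neutrophils, was -2.52 ± 0.30 (SE; edgeR, adjusted p = 0.000343), or -2.99 relative to the median of all genes. On the TPM scale it was smaller, -1.76 with limma on log2(TPM + 1). Dusp1 made up 79.5% to 92.6% of the TPM of the 8 genes together in neutrophils and 76.1% to 87.5% in monocytes.

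Dusp1 reads were split over annotated transcripts by the authors' quantification. The protein-coding transcript Dusp1-202 took 77.2% to 92.3% of the gene's TPM in neutrophils and 88.8% to 92.7% in monocytes. Retained-intron transcripts took 20.4% in the TN1 tag_191 and 22.8% in the TN2 tag_367 neutrophil library, while the remaining neutrophil libraries had 7.65% to 9.05% and monocytes 7.26% to 11.2%. The 2 high libraries carried different tumours. Leading-transcript shares were compared between cell types for the 5 genes with more than 1 measured transcript, and none passed (two-sided exact permutation tests, 5 libraries each except 4 neutrophil libraries for Dusp10, smallest adjusted p = 0.357 for shares of TPM and 0.278, for Dusp3, for shares of counts). Dusp3 had the widest gap. Its leading transcript Dusp3-206 held 80.5% ± 27.1 (SD, n = 5) of TPM in neutrophils and 54.8% ± 9.81 in monocytes (exact p = 0.103). In neutrophils that share rests on 89.1 to 145.6 counts for the whole gene.

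**Figure D2:**
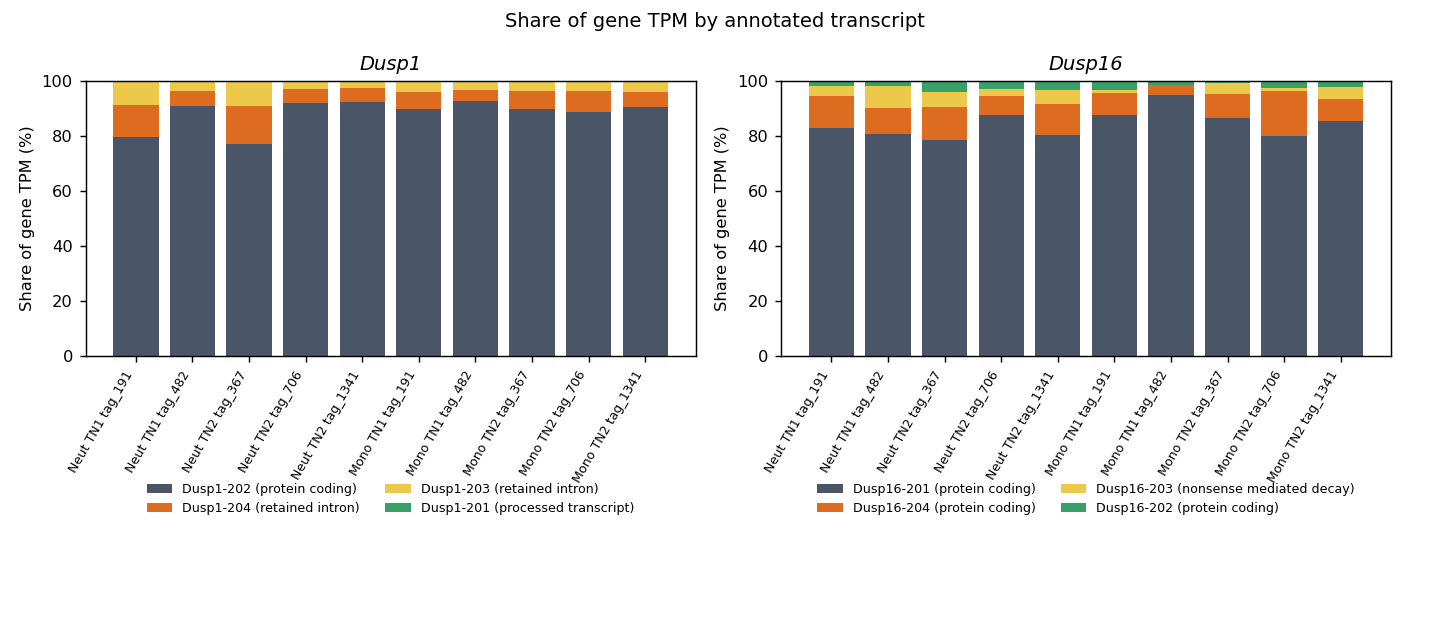
Share of each gene's TPM, in percent, assigned to each annotated transcript of Dusp1 (left) and Dusp16 (right) in the 10 libraries. The orange and yellow segments of Dusp1, both retained-intron transcripts, are widest in the TN1 tag_191 and TN2 tag_367 neutrophil libraries (20.4% and 22.8% together).

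Dusp2 (ENSMUSG00000027368, chromosome 2, 127336159 to 127338376, plus strand) encodes a nuclear phosphatase first known from activated lymphocytes. Neutrophil libraries held 15.3 and 21.1 TPM with TN1 and 56.7, 18.2 and 29.2 TPM with TN2. Monocyte libraries held 10.2 and 39.2 TPM with TN1 and 20.9, 12.6 and 23.7 TPM with TN2. The cell types overlapped widely, and the TN2 tag_367 neutrophil and TN1 tag_482 monocyte libraries were the highest. Those same libraries had 34.8% and 34.1% of the gene's TPM on its retained-intron transcript, against 0% to 21.1% in the other 8. The difference of -0.92 ± 0.46 did not pass (adjusted p = 0.156).

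Dusp4 (ENSMUSG00000031530, chromosome 8, 34807297 to 34819894, plus strand), a nuclear phosphatase close in sequence to Dusp1, was the lowest of the 8 by mean in monocytes and near the lowest in neutrophils. Its neutrophil levels were 1.11 and 0 TPM with TN1 and 0.536, 0.673 and 0.995 TPM with TN2. Its monocyte levels were 4.89 and 6.31 TPM with TN1 and 4.08, 6.51 and 6.61 TPM with TN2. All 5 monocyte libraries were above all 5 neutrophil libraries. The values rest on 0 to 25 counts per neutrophil library and 84 to 137 per monocyte library. The count of 0 in the TN1 tag_482 neutrophil library allows up to 0.429 CPM (3 counts). With edgeR the difference of 2.37 ± 1.01 did not pass (adjusted p = 0.106). It passed with DESeq2 (adjusted p = 0.00986), with limma on log2(TPM + 1) (adjusted p = 0.00165) and with edgeR without the TN1 tag_191 neutrophil library (5.85, adjusted p = 0.00521), which leaves that group with only the library at 0.

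Dusp5 (ENSMUSG00000034765, chromosome 19, 53529109 to 53542431, plus strand) encodes a nuclear phosphatase specific for ERK. Its CPM overlapped between the cell types, with 49.9 to 108.0 in neutrophils and 55.1 to 102.7 in monocytes. The difference was 0.11 ± 0.26 (edgeR, adjusted p = 0.776). On the TPM scale it read otherwise. Neutrophils stood at 31.5, 19.0, 28.9, 37.8 and 23.3 TPM and monocytes at 62.3, 50.2, 51.9, 42.7 and 40.3 TPM, without overlap. With limma on log2(TPM + 1) the difference was 0.87 ± 0.25 (adjusted p = 0.0155). Whether Dusp5 counts as higher in monocytes therefore depends on the scaling.

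Dusp6 (ENSMUSG00000019960, chromosome 10, 99263231 to 99267489, plus strand) encodes the cytoplasmic phosphatase specific for ERK, a standard readout of ERK activity. In neutrophils it stood at 363.8 and 265.5 TPM with TN1 and at 138.4, 252.3 and 244.6 TPM with TN2. In monocytes it stood at 57.2 and 12.1 TPM with TN1 and at 77.9, 86.7 and 133.2 TPM with TN2. The groups did not overlap, though the highest monocyte library (TN2 tag_1341) came close to the lowest neutrophil library (TN2 tag_367). The difference was -2.95 ± 0.44 (edgeR, adjusted p = 0.00102).

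The balance of the cytoplasmic and the nuclear ERK phosphatase, Dusp6 and Dusp5, differed between the cell types. Within each neutrophil library Dusp6 exceeded Dusp5 4.78-fold to 14.0-fold in TPM. Within monocyte libraries the ratio was 0.242 to 3.31, below 1 in both TN1 libraries and above 1 in all 3 TN2 libraries. The TN1 values were 0.918 for tag_191, close to 1, and 0.242 for tag_482, the library with 19.9% of TPM on mitochondrially encoded genes. The split at 1 was seen in the data and not tested. A ratio within a library does not depend on how libraries are scaled.

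Dusp10 (ENSMUSG00000039384, chromosome 1, 184013302 to 184075636, plus strand) encodes a phosphatase that acts on JNK and p38. Neutrophil levels were 0.217 and 0 TPM with TN1 and 0.483, 0.582 and 1.93 TPM with TN2. Monocyte levels were 4.62 and 12.1 TPM with TN1 and 6.19, 8.98 and 2.59 TPM with TN2. The cell types did not overlap in TPM, but in CPM the TN2 tag_1341 neutrophil library (6.87) was above the TN2 tag_1341 monocyte library (4.28). Neutrophil libraries held 0 to 45.5 counts of the gene. The difference was 3.62 ± 1.03 (edgeR, adjusted p = 0.0262). That call was lost without either tag_482 library (adjusted p = 0.0586 without the neutrophil and 0.0781 without the monocyte library), without the TN2 tag_706 neutrophil library (0.0552), without the TN2 tag_367 monocyte library (0.0546), without both tag_482 libraries (0.126), and with the tag as a replicate block (0.0629). Over the alternatives tried the adjusted p ran from 0.000116 to 0.126. Summed CPM of 15 monocyte markers was 3630 in the TN2 tag_1341 neutrophil library, against 1833 to 2076 in the other 4. The part of this in the Dusp10 level of that library was not tested.

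Dusp16 (ENSMUSG00000030203, chromosome 6, 134715468 to 134792625, minus strand), which encodes a phosphatase directed at JNK and p38, had the most negative difference of the 8. In neutrophil libraries it reached 418.5 and 205.3 TPM with TN1 and 256.5, 258.4 and 216.2 TPM with TN2. In monocyte libraries it reached 49.7 and 18.1 TPM with TN1 and 34.9, 48.0 and 55.6 TPM with TN2. No monocyte library came near the lowest neutrophil library. The difference was -3.53 ± 0.33 (edgeR, adjusted p = 0.000117). Within each of the 5 tags, which hold 1 neutrophil and 1 monocyte library, the difference was -3.77 to -3.03 on the log2(CPM + 1) scale. Its leading protein-coding transcript Dusp16-201 took 78.5% to 87.6% of the gene's TPM in neutrophils and 80.0% to 95.0% in monocytes.

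Dusp3 (ENSMUSG00000003518, chromosome 11, 101971143 to 101987013, minus strand) encodes a small phosphatase that lacks the MAP kinase docking domain of the classical members and acts on ERK and JNK. In neutrophils it stood at 2.57 and 2.85 TPM with TN1 and at 4.57, 5.82 and 2.68 TPM with TN2. In monocytes it stood at 40.9 and 32.6 TPM with TN1 and at 46.6, 52.8 and 54.2 TPM with TN2. The lowest monocyte library was well above the highest neutrophil library. The difference was 2.93 ± 0.24 (edgeR, adjusted p = 7.63e-05), the smallest SE of the 8. Within libraries the ratio of Dusp16 to Dusp3, in TPM, was 44.4 to 163 in neutrophils and 0.553 to 1.22 in monocytes.

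**Figure D3:**
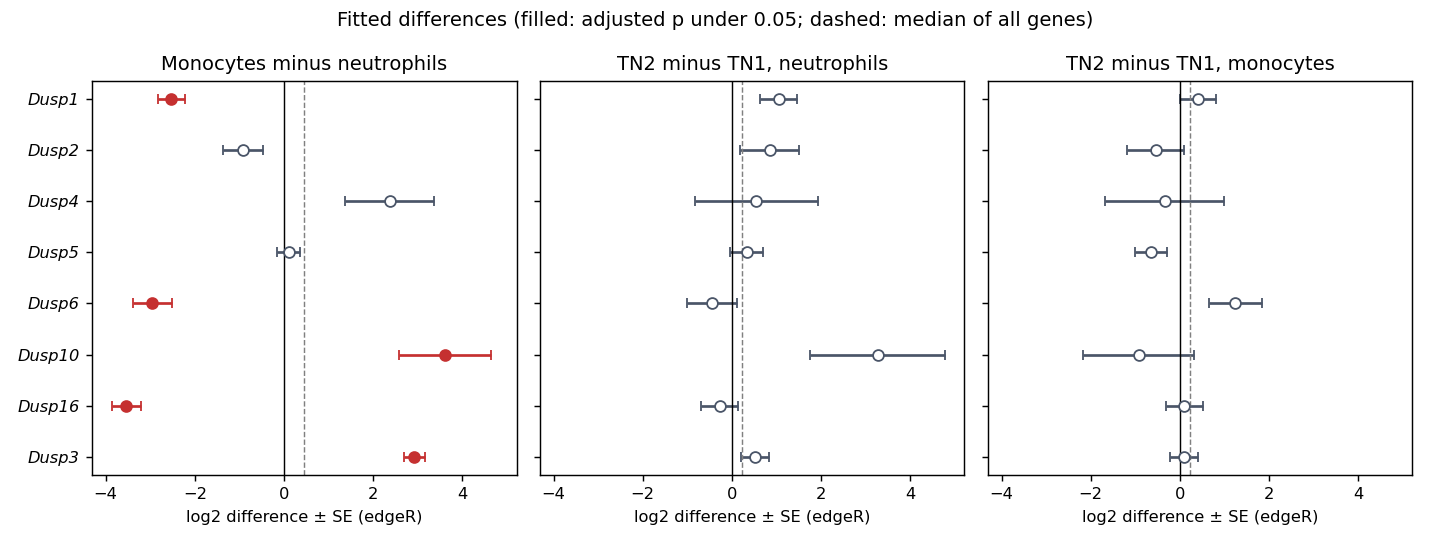
Fitted log2 differences (± SE, edgeR) of the 8 genes between monocytes and neutrophils (left) and between the tumours in each cell type (middle and right). Filled points passed an adjusted p of 0.05, and the dashed line is the median of all tested genes (0.46, 0.22 and 0.22). No gene passed in either tumour comparison.

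The order of levels differed between the cell types. In neutrophils the mean TPM was 4419 for Dusp1, 271 for Dusp16, 253 for Dusp6, 28.1 for both Dusp2 and Dusp5, 3.70 for Dusp3, 0.66 for Dusp4 and 0.64 for Dusp10. Of these neighbours Dusp16 and Dusp6, Dusp2 and Dusp5, and Dusp4 and Dusp10 overlapped. In monocytes the mean TPM was 1262 for Dusp1, 73.4 for Dusp6, 49.5 for Dusp5, 45.4 for Dusp3, 41.3 for Dusp16, 21.3 for Dusp2, 6.90 for Dusp10 and 5.68 for Dusp4. There each gene after Dusp1 overlapped its neighbour in the order. That order pools both tumours. By mean, Dusp5 came second within the TN1 monocyte libraries (50.2 to 62.3 TPM) and Dusp6 within the TN2 monocyte libraries (77.9 to 133.2 TPM). Each was without overlap with the next gene by mean of its group, which was Dusp3 in both. Dusp6 did overlap Dusp5 with TN1. It was at 57.2 TPM in tag_191, within the Dusp5 range, and its lower mean there rests on 12.1 TPM in tag_482.

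The wider pathway was read from 7 lists with 126 tested genes, chosen with earlier results of these libraries known. Of these, 10 were called higher and 26 lower in monocytes with edgeR, with a median difference of -0.30. Over all genes edgeR called 15.5% higher and 12.4% lower, the shares against which the edgeR counts of each list below are to be read. With limma on log2(TPM + 1) the pathway split was 29 higher and 18 lower. Limma called 4532 of all 13384 genes higher and 1198 lower, the background for the limma counts below. With edgeR without both tag_482 libraries the pathway split was 3 and 21, where all genes gave 1350 higher and 1382 lower. The genes named below have the smallest p in each direction. Of 27 such genes, 16 kept their call under all 17 alternatives tried.

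Among 22 other dual-specificity phosphatases, 2 were called higher and 2 lower. The higher genes were Dusp22 (4.93 ± 1.04, adjusted p = 0.00665), a JNK pathway regulator, and Ptpmt1 (5.63 ± 1.21, adjusted p = 0.00740), the mitochondrial phosphatase of cardiolipin synthesis. Neutrophils held 1.69 ± 2.51 CPM of Dusp22 and monocytes 33.5 ± 10.2 CPM (SD, n = 5 each). The lower genes were Ssh2, a cofilin phosphatase (-1.77 ± 0.25, adjusted p = 0.000735), and Dusp11, which acts on RNA (-1.32 ± 0.29, adjusted p = 0.00765). The Ptpmt1 call was lost without both tag_482 libraries (adjusted p = 0.0665).

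Of 11 MAP kinases, 2 were called with edgeR, both lower, while limma on log2(TPM + 1) called 2 higher and 1 lower. Mapk13, the p38 delta kinase, had 164 ± 38.2 CPM in neutrophils, against 7.31 ± 4.26 in monocytes (-4.51 ± 0.51, adjusted p = 0.000286). Mapk14, p38 alpha, differed by -1.10 ± 0.31 (adjusted p = 0.0266), a call that 7 of the 17 alternatives lost (highest adjusted p 0.298), among them leaving out either tag_482 library, the TN2 tag_1341 neutrophil or the TN1 tag_191 monocyte library. Of 25 upstream kinases and Ras proteins, 2 were called higher and 6 lower. Map2k3, a kinase that activates p38, had 1303 ± 278 CPM in neutrophils, against 324 ± 71.7 in monocytes (-1.97 ± 0.22, adjusted p = 0.000251). Braf, a kinase at the head of the ERK cascade (-2.69 ± 0.37, adjusted p = 0.000635), and Map3k5, a stress-activated kinase (-2.47 ± 0.34, adjusted p = 0.000643), were lower too. Map3k1 (1.65 ± 0.36, adjusted p = 0.00742) was higher, a call lost without both tag_482 libraries (adjusted p = 0.0582). The other gene called higher, Map2k6, had 0 counts in every neutrophil library and 2.91 ± 2.77 CPM in monocytes, and 5 alternatives lost its call (highest adjusted p 0.0805), among them leaving out either TN1 neutrophil library, the TN1 tag_191 or the TN2 tag_367 monocyte library.

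Of 19 effectors of MAP kinases, 2 were called higher and 3 lower. Rps6ka2, an ERK-activated ribosomal S6 kinase, stood at 37.2 ± 14.5 CPM in neutrophils, against 4.13 ± 5.15 CPM in monocytes (-3.97 ± 0.66, adjusted p = 0.00194). Mapkapk3, a kinase activated by p38, was higher in monocytes (1.32 ± 0.28, adjusted p = 0.00693; 0.0576 without both tag_482 libraries). The remaining 3 calls, Mef2c higher and Mknk1 and Mknk2 lower, were each lost in 8 to 12 of the 17 alternatives (highest adjusted p 0.0922, 0.212 and 0.919), 7 to 8 of them the loss of a single library, and Mknk2 turned to 0.04 with limma on log2(TPM + 1). Of 20 other feedback inhibitors, 2 were called higher and 1 lower. Pebp1, an inhibitor of Raf, rose to 55.8 ± 12.5 CPM in monocytes from 10.5 ± 8.98 CPM (2.46 ± 0.60, adjusted p = 0.0135). Errfi1 (higher) and Rasa2 (lower) lost their calls in 9 and 5 alternatives (highest adjusted p 0.138 and 0.0652), 8 and 5 of them the loss of a single library.

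Of 21 genes that ERK and p38 are known to induce at once, 9 were called lower in monocytes and 1 was called higher (median difference -0.99, against 0.46 for all genes). Limma on log2(TPM + 1) called 5 lower and 1 higher. Btg2, an antiproliferative early gene, had 5239.6 ± 1833 CPM in neutrophils, against 498 ± 219.6 in monocytes (-3.41 ± 0.31, adjusted p = 0.000104). Fosl2 (-2.12 ± 0.21, adjusted p = 0.000131) and Fosl1 (-3.90 ± 0.47, adjusted p = 0.000353), both AP-1 subunits, were lower in monocytes. Myc was the exception, with 2.14 ± 2.79 CPM in neutrophils, against 58.4 ± 23.1 in monocytes (5.58 ± 0.93, adjusted p = 0.00194). Of 8 genes induced by glucocorticoids, which also induce Dusp1, 3 were called lower and 1 higher. Tsc22d3 had 1066 ± 408 CPM in neutrophils, against 191.1 ± 74.4 in monocytes (-2.44 ± 0.28, adjusted p = 0.000312), and Per1, a clock gene, had 572 ± 82.1 and 121 ± 29.2 CPM (-2.29 ± 0.24, adjusted p = 0.000172). Il1r2 (lower) and Cd163 (higher, adjusted p = 0.0743 without both tag_482 libraries) are also markers of neutrophils and macrophages.

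**Figure D4:**
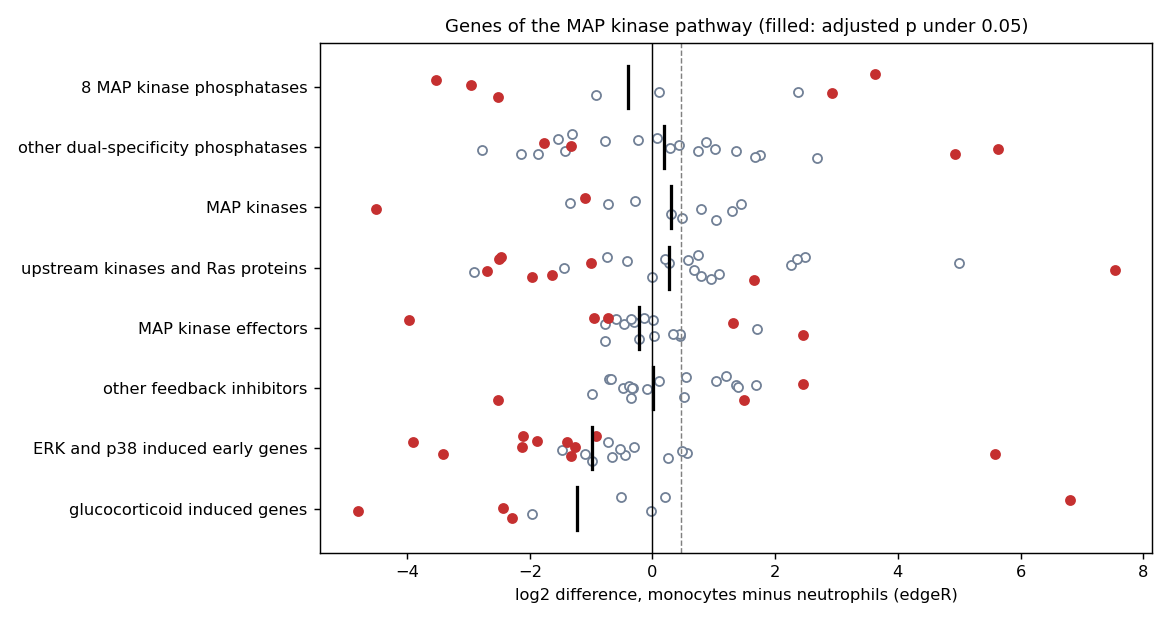
Log2 differences between monocytes and neutrophils (edgeR) for the 8 phosphatases and the 7 lists of pathway genes. Each point is a gene, filled where the adjusted p was under 0.05, thick bars are list medians, and the dashed line is the median of all tested genes (0.46). The early genes have a median of -0.99, with Myc as the filled point on the right.

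Between the tumours, none of the 8 genes passed in neutrophils (edgeR; 0% of all genes passed). At an unadjusted p under 0.05 there was 1, Dusp1. DESeq2 and limma called none of the 8 either. Of all 13384 genes, 625 had an unadjusted p under 0.05 with edgeR, fewer than the 669 expected by chance, and DESeq2 called 87. Without the TN1 tag_191 neutrophil library edgeR called 508 genes, none of them among the 8. Dusp1 was higher with TN2, at 8478, 10521 and 15748 CPM against 7209 and 4005 CPM with TN1 (1.05 ± 0.41, adjusted p = 0.943), without overlap. Dusp10 (3.27 ± 1.52, adjusted p = 0.943) and Dusp3 (0.52 ± 0.32, adjusted p = 0.943) also did not overlap in CPM, though Dusp3 overlapped in TPM. The Dusp10 value rests on 5 counts in the TN1 libraries together. These 3 of 8 stand beside 11.8% of all genes higher with TN2 without overlap. None of the 8 was lower without overlap, beside 5.91% of all genes. Of 15 monocyte markers, 12 had a positive difference in these neutrophil libraries (median 1.29, against 0.22 for all genes). Without overlap, 5 were higher and 1 was lower. Their summed CPM was 1845 and 2076 with TN1 and 1838, 1833 and 3630 with TN2. The part of RNA from monocytes in the Dusp3 and Dusp10 differences was not tested.

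The other 5 genes overlapped in neutrophils. Their differences, TN2 minus TN1, were 0.85 ± 0.65 for Dusp2, 0.54 ± 1.38 for Dusp4, 0.33 ± 0.37 for Dusp5, -0.44 ± 0.56 for Dusp6 and -0.27 ± 0.41 for Dusp16 (edgeR, adjusted p from 0.943 to 0.997). Dusp4 had the widest SE of the 5, with 0 to 25 counts a library behind it.

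In monocytes none of the 8 passed (edgeR; 0% of all genes passed), none had an unadjusted p under 0.05, and neither DESeq2 nor limma called any. Over all genes 379 had an unadjusted p under 0.05 with edgeR, fewer than the 669 expected by chance, and DESeq2 called 22. Without the TN1 tag_191 monocyte library edgeR called 129, again none of the 8. Dusp6 was higher with TN2, at 132.4, 127.8 and 220.2 CPM against 107.7 and 27.0 CPM (1.25 ± 0.59, adjusted p = 1), and did not overlap in CPM or TPM. It was 1 of 8 higher without overlap, beside 12.4% of all genes. Dusp5 was lower with TN2, at 77.2, 55.1 and 58.3 CPM against 102.7 and 97.5 CPM (-0.66 ± 0.36, adjusted p = 1), the 1 gene lower without overlap in CPM, beside 7.73% of all genes. In TPM its groups overlapped.

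Dusp1 in monocytes did not overlap in TPM but did in CPM, with 1333, 1760 and 1738 CPM with TN2 against 916 and 1519.5 CPM with TN1 (0.40 ± 0.40, adjusted p = 1). Dusp2 (-0.55 ± 0.63), Dusp3 (0.09 ± 0.31), Dusp4 (-0.34 ± 1.33), Dusp10 (-0.93 ± 1.25) and Dusp16 (0.10 ± 0.42) overlapped between the tumours in CPM. Neutrophil markers moved with the tumour in these monocyte libraries. Their summed CPM was 977 and 935 with TN1 and 1369, 2681 and 2122 with TN2, and 14 of 15 had a positive difference (median 2.24). As a share of the neutrophil mean that sum was 1.03% to 2.97%, while the Dusp6 level in the same libraries was 3.41% to 27.9% of its neutrophil mean and the Dusp1 level 9.96% to 19.2%. Macrophage markers were also higher with TN2 as a sum, mostly through the gene Chil3. Their summed CPM was 624 and 249.5 with TN1 and 1772, 4268 and 9334 with TN2, without overlap, and the highest library, tag_1341, is also the one with the most Dusp6. Chil3, a secreted chitinase-like protein, made up 83.1% and 29.6% of that sum with TN1 and 92.1% to 98.8% with TN2. Chil3 was also present in the neutrophil libraries, at 173 to 2001 CPM. Of the 9 macrophage markers tested, 6 had a positive and 3 a negative difference (median 1.44), and 3 were higher without overlap. Mrc1, with 56.7 and 55.2 CPM with TN1 and 28.2, 86.2 and 14.4 CPM with TN2, overlapped. Cd163 overlapped too, and Marco was at 0 in 3 of the 5 libraries. Dendritic cell markers went the other way, with a summed CPM of 294 and 1229 with TN1 and of 254, 270 and 154 with TN2, and 7 of 7 tested had a negative difference. The part of RNA from these cells in the tumour differences of Dusp6 and Dusp5 was not tested.

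The tumour effect itself was compared between the cell types. None of the 8 genes passed (edgeR; 0% of all genes; none of the 8 at an unadjusted p under 0.05; none with DESeq2 or limma). Over all genes 472 had an unadjusted p under 0.05 with edgeR, fewer than the 669 expected by chance, and DESeq2 called 21. Leaving out a TN1 tag_191 library, edgeR called 374 (neutrophils left out) and 68 (monocytes left out), none of the 8. The smallest p among the 8 belonged to Dusp10 (-4.20 ± 1.92), Dusp6 (1.69 ± 0.81) and Dusp5 (-0.99 ± 0.51), each with an adjusted p of 0.9999.

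The authors' deposited tables, which cover the tumour comparisons, gave an adjusted p of 1 for all 8 genes in both cell types. In the authors' deposited table Dusp1 had p = 0.0459 in neutrophils and p = 0.0493 in monocytes, with TN2 above TN1 by 0.98 and 0.80 on their log2 scale. The authors' deposited value for Dusp6 in monocytes was 1.82 (p = 0.0624).

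The pathway lists gave no call in either tumour comparison (edgeR). At an unadjusted p under 0.05 there were 6 of 126 genes in each, beside 625 (neutrophils) and 379 (monocytes) of all 13384 genes. DESeq2 and limma called none of the 126. The early genes had mostly positive differences, TN2 minus TN1, in both cell types. In neutrophils 19 of 21 had a positive difference (median 0.59, against 0.22 for all genes, of which 59.7% were positive), and 9 were higher without overlap, beside 11.8% of all genes. In monocytes 17 of 21 were positive (median 0.76, against 0.22 for all genes, of which 59.8% were positive), and 6 were higher without overlap, beside 12.4% of all genes. Summed CPM of the list in monocytes was 4488 and 5247 with TN1 and 5725, 11049 and 6113 with TN2, where the highest library, tag_706, is the one with the most stromal and endothelial markers. The macrophage marker sum given above was also higher in all 3 TN2 libraries, where it was mostly Chil3. The part of RNA from other cells in the early gene values was not tested. The smallest p belonged to Ier2 (1.48 ± 0.60) and Myc (2.80 ± 1.26) in neutrophils (both adjusted p = 0.943) and to Nr4a1 (0.89 ± 0.40) and Btg2 (0.84 ± 0.41) in monocytes (both adjusted p = 1). Of the other feedback inhibitors, those with the smallest p were Ptpn22 (2.91 ± 1.18) and Zfp36l1 (1.24 ± 0.51) in neutrophils, and Errfi1 (1.91 ± 0.70) and Spry2 (2.42 ± 1.08) in monocytes, with the same adjusted p.

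The genes whose profile over the 10 libraries was most like that of a member were found by the root mean square difference of centred log2(CPM + 1). They were Coq10b (0.30) and 4933415A04Rik (0.31) for Dusp1, Gsdme (0.35) and Mtg2 (0.36) for Dusp2, and Gm29486 (0.27) and Ryr1 (0.29) for Dusp3. They were U2surp (0.31) and Hk2 (0.33) for Dusp4, Lsm12 (0.15) and Arhgdia (0.17) for Dusp5, and C5ar2 (0.36) and Gpld1 (0.38) for Dusp6. They were Ccdc91 (0.38) and Sdad1 (0.41) for Dusp10, and Resf1 (0.24) and Adam8 (0.27) for Dusp16. The median over all genes ran from 1.02 for Dusp5 to 2.11 for Dusp16. The named genes were picked as the nearest of all tested genes, so distances below that median follow from the selection. Among the 8 genes themselves, Dusp6 and Dusp16 were the closest pair (0.67), followed by Dusp4 and Dusp10 (0.72).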

How the data were processed

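RNA of sorted neutrophils and CCR2+ monocytes from lung was amplified by Smart-seq2, which uses no molecular barcodes, and sequenced on a HiSeq 2500, per the labels' protocols. Copies made by PCR are therefore counted as reads. Per the submitters' processing notes, the authors used kallisto and GRCm38. Per the file headers, each deposited table gives an estimated count and a TPM value for every transcript. The authors' deposited comparison tables give log2 group means, which equalled the mean of log2(TPM + 1) within 0.01 for 16 of 16 pairs of members and cell types. They also give p-values, and the deposited files do not name the test behind them.

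Gene values are sums over the transcripts that GENCODE mouse release 21 assigns to a gene: 81839 of 85276 matched (96.0%). The unmatched transcripts held 1.94% to 3.59% of a library's counts and were left out. Counts were rounded and fitted in 1 model of the 4 groups and 10 libraries with edgeR 4.0.16 in R 4.3.3 (filterByExpr by group, TMM, quasi-likelihood F test, 6 residual degrees of freedom, Benjamini-Hochberg over 13384 genes, threshold 0.05). The SE is the absolute log2 difference over the square root of F. The script was tested on simulated data. Alternatives were DESeq2 1.42.0, RLE scaling, no filter, limma-trend 3.58.1 on log2(TPM + 1) and log2(TPM + 0.1), a replicate block, each library left out, and, chosen after seeing the data, both tag_482 libraries left out. The limit of a count of 0 is 3 counts and covers counting error only.

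The members, the lists and the tests were chosen with earlier results of these data known. Text names all 8 members, for each member the 2 genes most like it, and from each pathway list the genes with the smallest p, at most 3 in each direction between cell types and at most 2 a list between tumours.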

Additional observations from a re-analysis of the deposited data

How the results depend on the processing

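Between the cell types Dusp1, Dusp3, Dusp6 and Dusp16 kept their direction and their call under all 17 alternatives. Dusp10 lost its call under 6, and Dusp4 gained one under 4. The count of the 8 genes called ran from 4 to 7 over all alternatives, with 4 under the replicate block, where Dusp10 had an adjusted p of 0.0629 and all genes gave 3335 calls. Whether the tags pair the samples is not settled: correlations of same-tag deviations were 0.09, 0.09, -0.08, 0.38 and 0.35, over 0.1 for 2 of 5 tags, and for 4 of 5 tags (all but tag_367) the neutrophil library correlated best with the monocyte library of its own tag among those of its tumour, a hint from the data and not from the design. With 2 tags, as for TN1, both pairs have the same value by construction. Those 2 of the 4 tags therefore meet or miss the criterion together and are 1 observation. The replicate block could not be fitted for the tumour comparisons, since a tag holds 1 tumour. The cause of the changes below was not tested.

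All genes called between the cell types numbered 3733, and 5730 with limma on log2(TPM + 1). Between the tumours edgeR called 0 genes in each comparison. In neutrophils DESeq2 called 87, edgeR without a filter 2, and limma 1 and 3 with the larger and the smaller pseudocount, and leaving out single libraries gave 0 to 508, the latter without the TN1 tag_191 neutrophil library. In monocytes DESeq2 called 22, and single libraries left out gave 0 to 129, the latter without the TN1 tag_191 monocyte library. For the difference of the tumour effects DESeq2 called 21, edgeR without a filter 1, and single libraries left out gave 0 to 374, the latter without the TN1 tag_191 neutrophil library and 68 without the TN1 tag_191 monocyte library. Where a library of TN1 is left out, the lone one is assumed to vary like the other groups. No member was called in any of these.

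Small differences turned. Between cell types Dusp5 ran from -0.042 to 0.31 with single libraries left out and was -0.10 without both tag_482 libraries, and Mknk2 was 0.04 with limma under either pseudocount (0.038 and 0.039). In neutrophils, TN2 minus TN1, Dusp4 ran from -0.43 to 7.52, where the high end has a group at 0 and is no bound, and Dusp16 from -0.69 to 0.36. Without both tag_482 libraries Dusp4 was -0.48 and Dusp5 -0.0071. In monocytes Dusp2 ran from -1.20 to 0.63, Dusp3 from -0.070 to 0.13 and Dusp16 from -0.44 to 0.75. Dusp3 was -0.0019 with DESeq2 and -0.0020 with RLE scaling, and Dusp4 was 0.012 and 0.011 with limma. Without both tag_482 libraries Dusp2 was 0.64, Dusp10 0.042 and Dusp16 -0.40. For the difference of tumour effects Dusp4 ran from -7.87 to 0.090 and Dusp16 from -0.26 to 1.13. Without both tag_482 libraries Dusp1 was 0.12 and Dusp4 0.42.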
